A study of Mus musculus with 6 samples.

Results

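Genes of iron export, heme breakdown and iron storage were followed in MA-10 cells, a steroid-making line from a mouse Leydig cell tumour, after an siRNA against COUP-TFII. COUP-TFII is the orphan nuclear receptor encoded by Nr2f2. RNA of 6 cultures was measured, 3 given a control siRNA and 3 given the siRNA against COUP-TFII, each for 48 h, with no further treatment in the labels. The cultures are biological replicates of 1 cell line, and the labels do not give the siRNA sequences or the number of siRNAs. The members are 10 genes (Slc40a1, Hmox1, Blvra, Blvrb, Slc11a1, Slc11a2, Bdh2, Ncoa4, Tfrc and Fth1), of 24032 genes with a probe set of their own. They were found by symbol on 11 of 26836 annotated probe sets, and Ncoa4 has 2. They were chosen by function with the differences between these same 6 arrays already known, so their differences are given here as a description. Where a member is said to be called, this says where it stands in the fit over all probe sets, and neither the calls nor the intervals of members are independent evidence of a change.

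Cells take up iron bound to transferrin through the transferrin receptor, move it across membranes with proton-coupled metal transporters of the SLC11 family, store it in ferritin and release it through ferroportin, the only known iron exporter of mammals. Heme is opened by heme oxygenase to biliverdin, carbon monoxide and iron, and biliverdin reductases turn biliverdin into bilirubin. In Leydig cells heme is the cofactor of the P450 enzymes that make steroids.

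Values are normalized log2 expression as deposited, on a scale on which a difference of 1 is a doubling. A brightness compares a gene with itself between arrays and says nothing about amounts of different transcripts. Percentiles of brightness, where given, place a signal among those of all probe sets and are not amounts. The precision given for a gene draws on the spread between its replicates and on that of all annotated probe sets. With 3 arrays against 3, an exact 2-sided permutation p under 0.1 cannot be reached for a single gene. Medians over annotated probe sets lay between 7.54 and 7.61 in the 6 arrays. The median difference over these probe sets was 0.01 (COUP-TFII siRNA minus control siRNA). The Nr2f2 probe set read 8.98, 8.97 and 9.19 in control arrays and 8.25, 8.42 and 8.56 in COUP-TFII siRNA arrays, or 64.4% of control, with the groups apart. Of 8 Leydig cell markers (among them Star, Cyp11a1 and Lhcgr), the dimmest lay at percentile 54.5 of probe set brightness and the median at 91.2. Of these 8, 6 were called lower after COUP-TFII siRNA (Star, Cyp11a1, Hsd3b1, Lhcgr, Inha and Scarb1) and 0 higher. The markers not called were Nr5a1, at -0.02 (SE 0.05), and Cyp17a1, which lay above control at 0.34 (SE 0.13) with groups that overlapped. On the linear scale the sum of all 8 ranged from 26109 to 27081 in control arrays and from 20889 to 21400 in COUP-TFII siRNA arrays. Bright genes weigh most in such a sum. Thus the 6 called Leydig markers moved with the members called lower, and their part in those differences was not tested. With fewer or more cells of a kind and less or more RNA per cell, array values look the same.

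The iron exporter gene Slc40a1, the heme breakdown genes Hmox1 and Blvrb and the metal transporter gene Slc11a1 were lower after COUP-TFII siRNA, Blvra was not called, the ferritin heavy chain and the transferrin receptor lay close to control, and the ferritin receptor Ncoa4 and the dehydrogenase gene Bdh2 were higher. In the limma fit over all annotated probe sets, 4 of the 10 genes were called lower and 2 higher, where a call is a Benjamini-Hochberg adjusted p below 0.05. Among all of these probe sets 2.92% were called lower and 1.59% higher, or 4.51% in either direction, and nothing is read from the members' count because the same contrast was known when they were chosen. In numbers, 783 probe sets were lower and 426 higher, and 1184 and 308 with each array centred on its median. The arrays of the groups did not overlap for 8 of the 10 genes, against 25.2% of all probe sets. COUP-TFII siRNA replicate 2 was the lowest of its 3 arrays for 6 of the 10 genes. The median difference of the 10 genes was -0.12, beside 0.01 over all genes.

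**Figure D1:**
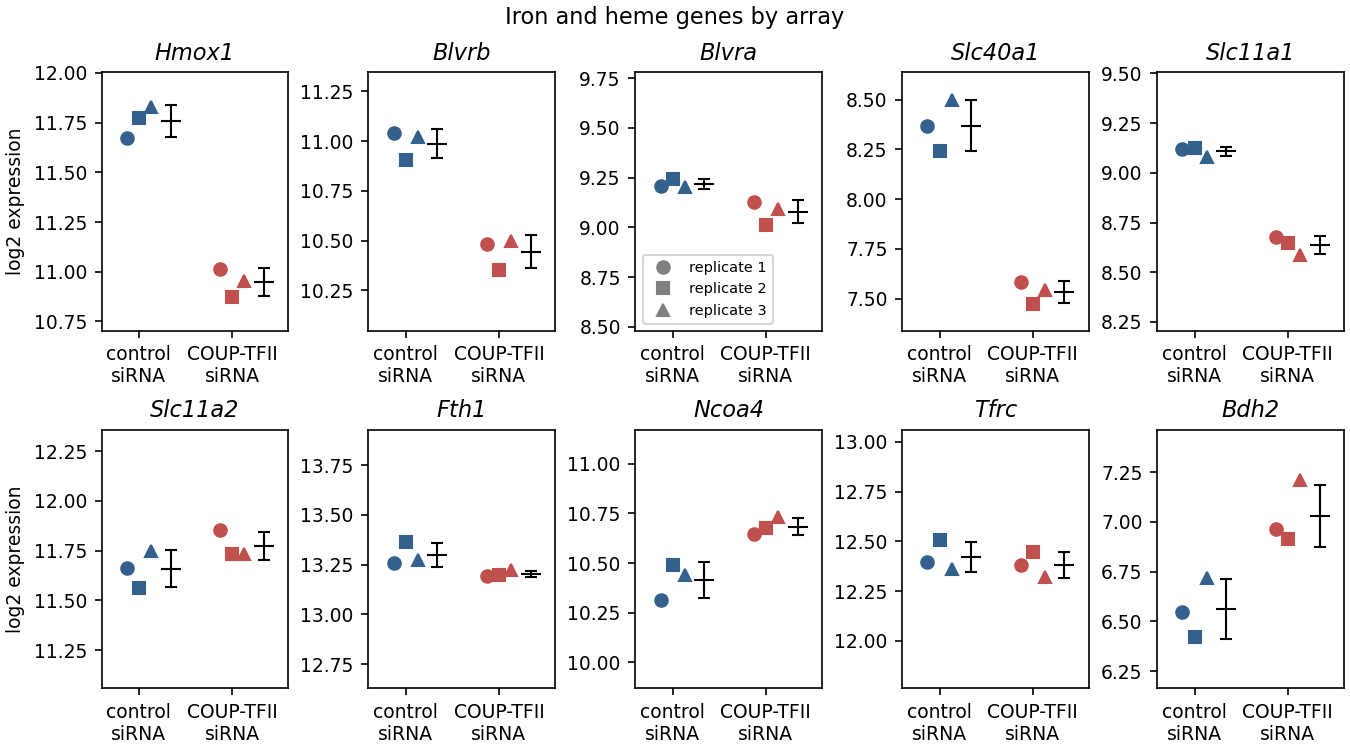
Normalized log2 expression (vertical axes, each spanning the same number of log2 units) of the 10 genes in 3 control siRNA arrays (blue) and 3 COUP-TFII siRNA arrays (red), with the mean and SD of each group in black and the replicate number by symbol. The groups are apart for all genes but Slc11a2 and Tfrc, with the widest differences for Slc40a1 and Hmox1.

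Hmox1, the inducible heme oxygenase that opens the heme ring, read 11.67, 11.77 and 11.83 in control arrays and 11.01, 10.88 and 10.95 in COUP-TFII siRNA arrays. Every COUP-TFII siRNA array lay below every control array, and the gap between the groups was wider than the range inside either. The probe set is annotated to chromosome 8 band C1. The mean changed from 11.76 ± 0.08 to 10.95 ± 0.07 (SD, n = 3), a difference of -0.81 (SE 0.06), which leaves 57.0% of control. In size it was the 15th of all falls among 24032 genes.

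Blvrb, a biliverdin and flavin reductase, came next in the pathway with 11.04, 10.90 and 11.02 in control arrays and 10.48, 10.35 and 10.50 in COUP-TFII siRNA arrays. Again no array of a group reached the other group, and replicate 2 was the lowest in both. The difference was -0.54 (SE 0.06), or 68.6% of control, for a probe set on chromosome 7 band A3. Blvra, the reductase that makes the main form of bilirubin, moved less. It read 9.21, 9.25 and 9.20 in control arrays and 9.13, 9.01 and 9.09 after COUP-TFII siRNA. The groups did not overlap, but the difference of -0.14 (SE 0.05) was not called. Its 95% interval runs from 83.9% to 98.0% of control. Whether the reductases differ from each other in response was not tested, since both were chosen with these values known.

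The 250 bases before the Blvra start site are shown because they hold a core motif of NRF2, a known activator of Hmox1, which the Blvrb window does not hold. They come from RefSeq (GRCm38.p6, chr2:127070407-127070656, plus strand), 5′ to 3′, with the match in capitals.

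Blvra: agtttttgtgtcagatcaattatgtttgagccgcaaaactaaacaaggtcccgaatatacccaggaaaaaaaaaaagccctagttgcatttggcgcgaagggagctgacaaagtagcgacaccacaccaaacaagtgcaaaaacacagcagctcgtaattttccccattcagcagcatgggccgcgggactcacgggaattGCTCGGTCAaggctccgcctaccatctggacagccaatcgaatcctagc

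The capitals mark the antioxidant response element core TGACNNNGC, read on the minus strand, whose first base on the plus strand lies 49 bases before the start. This core stands in 12.4% of all 32851 windows of the table, which reach from 250 bases before to 50 bases after a start. A match is a description of letters and not of a bound site.

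Iron export is represented by a single gene, whose difference was close to that of Hmox1 in size. Slc40a1, which encodes ferroportin, read 8.37, 8.24 and 8.50 in control arrays and 7.58, 7.47 and 7.54 in COUP-TFII siRNA arrays. The lowest control array stood well above the highest COUP-TFII siRNA array, and the control arrays were the more spread out. The mean changed from 8.37 ± 0.13 to 7.53 ± 0.06 (SD, n = 3). The difference was -0.84 (SE 0.07) and its 95% interval ran from 50.2% to 62.6% of control, for a probe set on chromosome 1 band B. It ranked 11 among all falls of genes by size. Its difference and that of Hmox1 lie within an SE of each other, and their order turned without control siRNA replicate 1 (-0.84 against -0.85) and replicate 3 (-0.77 against -0.78).

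Both SLC11 metal transporters were measured, and they lay on opposite sides of control. Slc11a1, known in macrophages for moving metal ions out of the phagosome, read 9.12, 9.12 and 9.08 in control arrays and 8.68, 8.65 and 8.59 in COUP-TFII siRNA arrays. The replicates of each group stood close together and the groups apart. The difference was -0.47 (SE 0.05), or 72.2% of control. Slc11a2, or DMT1, which carries iron out of the endosome after transferrin uptake, read 11.66, 11.56 and 11.75 in control arrays and 11.85, 11.73 and 11.74 after COUP-TFII siRNA. Here the groups overlapped, and the difference of 0.12 (SE 0.06) was not called, with an interval from 98.2% to 120% of control. Since Slc11a1 is known from macrophages, macrophage markers are given beside it. Of 12 (Cd68, Adgre1, Csf1r, Ptprc, Cd14, Lyz2, Itgam, Mrc1, Cd163, Spic, Fcgr1 and Mpeg1) none was called in either direction. Adgre1, Lyz2, Cd163 and Spic were dim, at percentiles from 10.4 to 15.9 of brightness. Cd68 and Mpeg1 were brighter, at 61.0 and 65.1, near Slc11a1 at 64.0. Cd68 gave -0.27 (SE 0.09) with groups that overlapped, Mpeg1 gave 0.00 (SE 0.09), and Ptprc gave 0.21 (SE 0.06) with groups apart. Summed on the linear scale the 12 ranged from 1519 to 1638 in control arrays and from 1518 to 1558 in COUP-TFII siRNA arrays, so the groups overlapped.

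The sequence before the Slc11a1 start is shown because, of the members called lower that have a window, Slc11a1 holds the core motif of nuclear receptors, AGGTCA. It is RefSeq sequence (GRCm38.p6, chr1:74374953-74375202, plus strand), with the motif in capitals. The Ncoa4 site below it (chr14:32165734-32165763, plus strand) carries, in capitals, an antioxidant response element core that overlaps the same nuclear receptor motif on the minus strand.

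Slc11a1: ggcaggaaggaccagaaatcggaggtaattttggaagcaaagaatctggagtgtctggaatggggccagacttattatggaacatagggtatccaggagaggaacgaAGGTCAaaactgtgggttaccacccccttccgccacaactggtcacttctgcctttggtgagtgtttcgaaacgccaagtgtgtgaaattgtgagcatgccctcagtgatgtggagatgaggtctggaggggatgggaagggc

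Ncoa4: aaggcggggcgTGACCTGGCcggtagggta

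The Slc11a1 motif begins 143 bases before the start and the Ncoa4 site 44 bases before the last of 3 annotated Ncoa4 starts. AGGTCA alone is common, in 16.3% of all windows on either strand. A direct repeat of it with 1 base between, the arrangement known as DR1 that COUP-TFII binds, was searched with 1 mismatch allowed and stands in 0.554% of windows. The reference table held 12 windows of 7 of the 10 genes, and Hmox1, Slc40a1 and Slc11a2 have none in it. None of the 12 held the DR1 letters, the AP-1 core TGANTCA (7.81% of all windows), the E-box CACGTG (7.15%) or the letters of an iron responsive element loop on the sense strand (10.4%). That loop was searched as CAGTG with a C 6 bases ahead of it. All but that loop were searched on both strands, and no match says only that the letters are not in these windows.

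Iron storage and its release split by gene. Fth1, the ferritin heavy chain that oxidizes iron for storage, read 13.26, 13.37 and 13.27 in control arrays and 13.19, 13.20 and 13.22 after COUP-TFII siRNA. The groups were just apart, and the difference of -0.09 (SE 0.05) was not called, with a 95% interval from 86.7% to 101% of control. Fth1 has processed pseudogenes, and whether its probes also read those was not tested. Ncoa4, the receptor that carries ferritin to autophagosomes for iron release, lay on the other side. Its brighter probe set read 10.31, 10.49 and 10.44 in control arrays and 10.64, 10.67 and 10.73 in COUP-TFII siRNA arrays. All COUP-TFII siRNA arrays stood above all control arrays, and the difference was 0.27 (SE 0.06), or 121% of control. The second Ncoa4 probe set gave 0.26 (SE 0.06). Both are annotated to chromosome 14 band B, and whether either reads a copy of the gene elsewhere was not tested. The readings of the probe sets differed by little on every array, so they are not counted as independent measurements. Ncoa4 was not called without control siRNA replicate 1 (0.22) or replicate 3 (0.28), or without COUP-TFII siRNA replicate 1 (0.29), 2 (0.27) or 3 (0.25). It was also not called with each array centred on its median (0.24) or with the replicate number as a block (0.27).

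Iron uptake did not stand apart. Tfrc, the transferrin receptor, read 12.40, 12.51 and 12.36 in control arrays and 12.38, 12.45 and 12.32 after COUP-TFII siRNA. The groups overlapped and showed the same order of replicates. The difference was -0.04 (SE 0.06), with an interval from 88.9% to 107% of control. Transcripts of Tfrc and Fth1 are known to carry iron responsive elements, through which in other systems iron supply sets Tfrc stability and Fth1 translation. The arrays do not measure translation.

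Bdh2, a cytosolic dehydrogenase that has been proposed to make a mammalian siderophore, showed the largest rise of the 10. It read 6.55, 6.42 and 6.72 in control arrays and 6.96, 6.91 and 7.21 in COUP-TFII siRNA arrays. No overlap was seen, although replicate 3 was high and replicate 2 low in both. The mean changed from 6.56 ± 0.15 to 7.03 ± 0.16 (SD, n = 3), and the difference was 0.47 (SE 0.10), or 138% of control. The probe set was dim, at percentile 37.4 of brightness, and the SE was the widest of the 10. Bdh2 was not called without control siRNA replicate 1 (0.46) or 2 (0.40), nor without COUP-TFII siRNA replicate 1 (0.50), 2 (0.52) or 3 (0.38). With probe sets that have no symbol added to the fit, or at an adjusted p under 0.01, neither Bdh2 nor Ncoa4 was called.

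**Figure D2:**
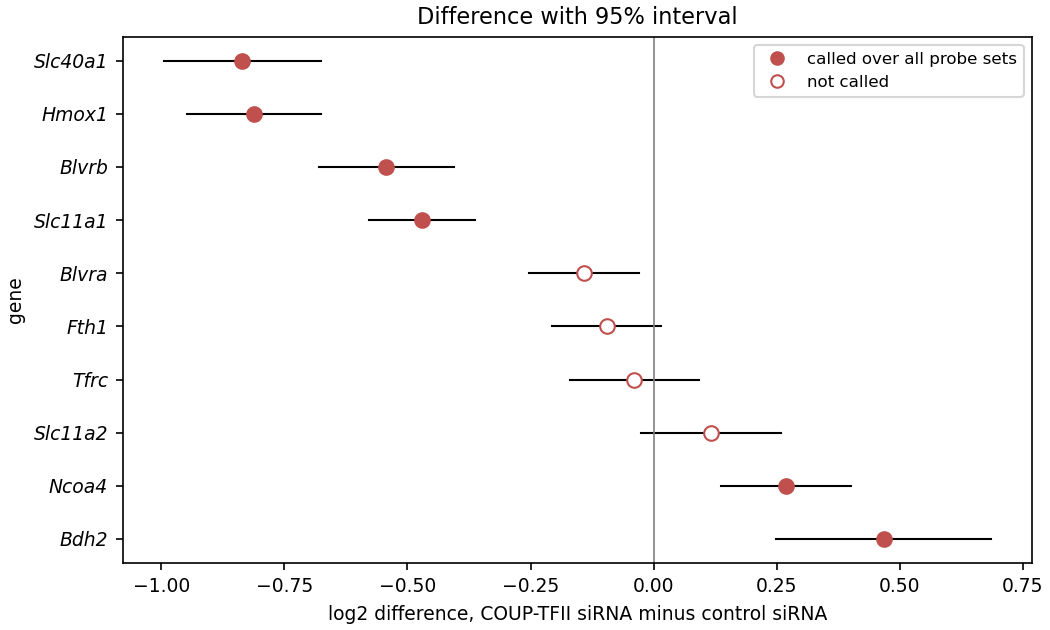
Difference between groups (horizontal axis, log2 units, COUP-TFII siRNA minus control siRNA) for the 10 genes, with 95% intervals of the limma fit; filled points were called over all probe sets. Slc40a1, Hmox1, Blvrb and Slc11a1 lie below 0, Ncoa4 and Bdh2 above it.

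The authors' deposited table of changed genes holds 4 of the 10. In the authors' deposited table the ratio of COUP-TFII siRNA to control was 56.6% for Hmox1, 57.6% for Slc40a1, 68.4% for Blvrb and 75.6% for Slc11a1. The authors' deposited table of all genes gives 133% for Bdh2 and 119% for the brighter Ncoa4 probe set. How the authors fitted these ratios is not known from the sources used here, and they are not counted as further evidence.

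Other genes of iron and heme metabolism were taken from 7 lists with 145 genes, of which 141 had a probe set of their own. Of these 8 fell and 0 rose, and 133 did not pass. The falls were 5.67% of the 141, beside 2.92% of all probe sets that were lower and 1.59% that were higher. The lists were chosen with earlier results of these data known and read by 1 probe set a gene. Nothing is therefore read from these shares or from the counts by list below. Adjusted p-values of list genes say where they stand in the fit over all probe sets. The median difference of the 141 genes was -0.03, with 84 below 0. Without COUP-TFII siRNA replicate 2 the count of falls was 2, without COUP-TFII siRNA replicate 1 or 3 it was 4 each, and without control siRNA replicate 3 it was 3. With each array centred on its median it was 15.

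The largest fall on these lists was Hephl1, a membrane ferroxidase of the hephaestin family, whose family oxidizes exported iron in other tissues. It read 9.36, 9.40 and 9.42 in control arrays and 8.84, 8.74 and 8.84 in COUP-TFII siRNA arrays. The groups were far apart and the replicates close together. It fell by 0.59 (SE 0.05, limma adjusted p = 0.00132), to 66.5% of control. It was the 1 fall among 10 iron chaperones, ferritin partners and ferroxidases, with 0 rises and a list median of 0.04. The ferritin light chain Ftl1 differed by -0.12 (SE 0.04, adjusted p = 0.187) and was not called. Of 16 genes of the transferrin cycle and other iron import, 0 fell and 0 rose by limma, and the list median was 0.04. The ferritin receptor Scara5 gave 0.20 (SE 0.06, adjusted p = 0.0903) and passed only among the brighter probe sets (adjusted p = 0.0326, the lowest of its alternatives). The metal importer Slc39a8 gave 0.12 (SE 0.05, adjusted p = 0.261).

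Regulators of iron and heme genes did not pass the test either, with 0 falls and 0 rises among 24 and a median of 0.01. Neo1, or neogenin, a co-receptor of hemojuvelin, gave 0.19 (SE 0.05, adjusted p = 0.0739), and passed with array weights (0.0455), among brighter probe sets (0.0225) and with an intensity trend (0.013). Fam132b, the gene of erythroferrone, gave 0.23 (SE 0.07, adjusted p = 0.124). The regulators known to act on Hmox1 and the ferritin genes fall outside the rule for named genes and were singled out after their values were seen, as were Ftl1 above and Hmox2 below. Nfe2l2, the gene of NRF2, gave -0.15 (SE 0.05, adjusted p = 0.126), and its repressor gene Keap1 gave -0.05 (SE 0.05). The heme-sensing repressor gene Bach1 gave 0.05 (SE 0.05). The iron regulatory protein genes Aco1 and Ireb2 gave 0.03 (SE 0.06) and -0.04 (SE 0.06).

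Heme synthesis held 1 fall and 0 rises among 18 genes, with a median of -0.01 and 9 of the 18 below 0.

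Heme handling and bilirubin genes held 1 fall and 0 rises among 19 measured, with a median of -0.08. Slc48a1, which moves heme from the lysosome to the cytosol, read 12.54, 12.55 and 12.63 in control arrays and 12.29, 12.32 and 12.36 in COUP-TFII siRNA arrays. The groups were apart, and it fell by 0.25 (SE 0.05, limma adjusted p = 0.0271), to 84.1% of control. It missed the threshold without any of the 6 arrays, with adjusted p from 0.0515 without control siRNA replicate 1 to 0.105 without COUP-TFII siRNA replicate 1 or 2. Leaving out control siRNA replicates 2 and 3 gave 0.0543 and 0.0958, and leaving out COUP-TFII siRNA replicate 3 gave 0.0659. Hmox2, the constitutive heme oxygenase, gave -0.19 (SE 0.05, adjusted p = 0.0757), where Hmox1 had given -0.81, and the difference between these genes was not tested.

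Mitochondrial iron and iron-sulfur cluster genes held 3 falls and 0 rises among 28 measured. The falls were 10.7%, beside 2.92% of all probe sets. Of the 28, 24 lay below 0, and their median was -0.08, beside 0.01 over all genes. Fdx1, the iron-sulfur protein that passes electrons to the side-chain cleavage enzyme, fell by 0.38 (SE 0.04, limma adjusted p = 0.00421), to 76.7% of control. Cisd1, the outer membrane protein mitoNEET, fell by 0.28 (SE 0.05, adjusted p = 0.0171). Nfs1, the cysteine desulfurase that supplies sulfur, fell by 0.27 (SE 0.05, adjusted p = 0.0238). All 3 had groups that stood apart, as did 25.2% of all probe sets. Cisd1 was no longer called without COUP-TFII siRNA replicate 1 (0.0746) or 2 (0.0752) and without control siRNA replicate 3 (0.0533). Nfs1 was lost without COUP-TFII siRNA replicate 1 (0.0813), 2 (0.1) or 3 (0.075) and without control siRNA replicate 2 (0.05, at the threshold) or 3 (0.0816).

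Heme enzymes and their electron donors held 2 falls and 0 rises among 26, with a median of -0.06. Cyp11a1, the P450 that makes pregnenolone from cholesterol, fell by 0.33 (SE 0.06, limma adjusted p = 0.0168). Catalase (Cat), a heme enzyme that breaks down hydrogen peroxide, fell by 0.27 (SE 0.05, adjusted p = 0.0201). Without COUP-TFII siRNA replicate 2 or 3 adjusted p was 0.0798 and 0.0651 for Cyp11a1 and 0.0901 and 0.0703 for Cat, and for Cat it was 0.0535 and 0.0715 without control siRNA replicates 1 and 3. Of 7 red cell lineage markers, which include Alas2, the gene of the erythroid aminolevulinate synthase, none was called, and their sum ranged from 1449 to 1601 in control and from 1456 to 1523 in COUP-TFII siRNA arrays.

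**Figure D3:**
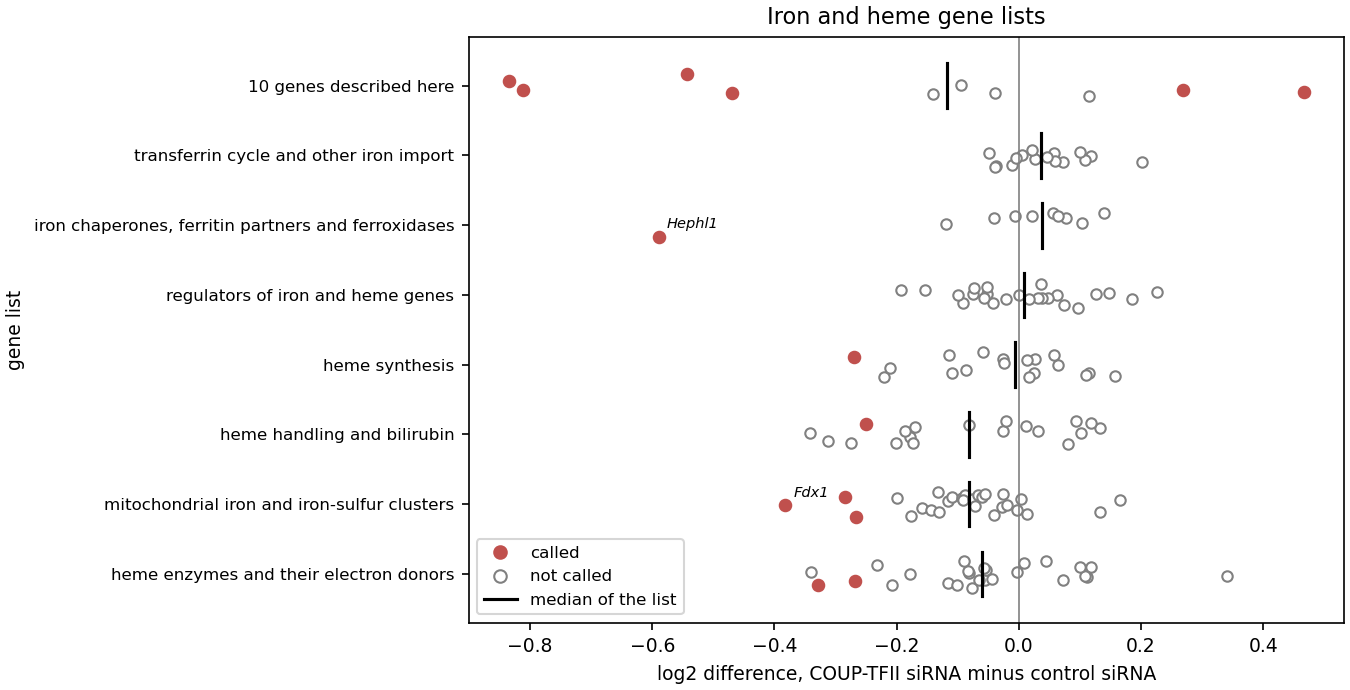
Difference between groups (horizontal axis, log2 units, COUP-TFII siRNA minus control siRNA) of each measured gene of the 7 lists and of the 10 genes described (top row), with list medians as black bars and called genes filled. The called genes of the 7 lists all lie below 0, and Hephl1 at -0.59 is the furthest from it.

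The genes whose profiles over the 6 arrays were most like those of Slc40a1 and Hmox1 were found by the root mean square difference between profiles centred on the control mean. The ranking was made among genes outside the 10, with predicted genes and those without a descriptive name left out. For Slc40a1 these were Ehf (0.07 log2 units), Sspn (0.08) and Cav1 (0.10). For Hmox1 they were Sspn (0.02), Star (0.06) and Nqo1 (0.07). The nearest of the other 9 genes to each was the other of this pair, at 0.07 (0.0749), so Hmox1 was nearer to Slc40a1 than Sspn and Cav1 were. Likeness was measured over 6 arrays in 2 groups, so it mostly reflects a difference of similar size. Under the 17 other settings Slc40a1 ran from -0.90 to -0.77, Hmox1 from -0.85 to -0.78, Blvrb from -0.58 to -0.50 and Slc11a1 from -0.50 to -0.44, all called. Tfrc stayed within -0.07 to 0.00 and was called in none.

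**Figure D4:**
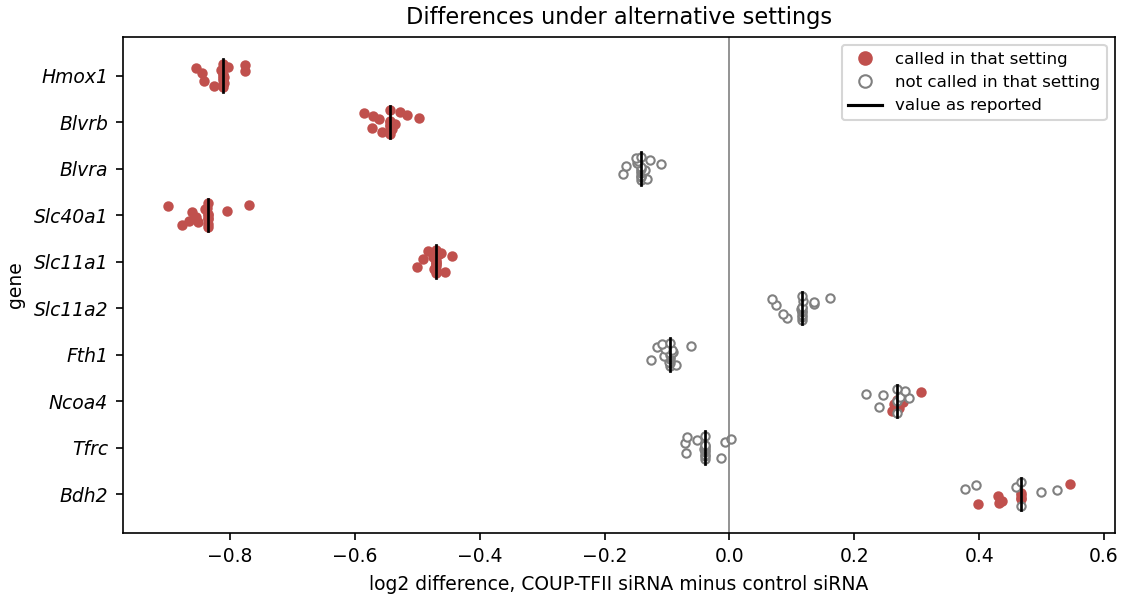
Difference between groups (horizontal axis, log2 units, COUP-TFII siRNA minus control siRNA) of the 10 genes under up to 17 other settings of the analysis, with the reported value as a black bar and settings in which the gene was called filled. Slc40a1, Hmox1, Blvrb and Slc11a1 were called in all 17, Bdh2 and Ncoa4 in part of them.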

How the data were processed

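The arrays were of the Affymetrix type, per the labels' protocols, labelled from total RNA. The authors' deposited value table holds normalized log2 expression of 35556 probe sets. The submitters' processing notes name Partek 7.0, and how probes were summarised and arrays normalized is not given in the sources used here. That values are log2 follows from their range. The deposited tables of the authors also give a linear ratio, a p-value and a signed fold (a score that is negative for falls), which were only quoted.

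All 26836 probe sets with a symbol were fitted with limma 3.58.1 (lmFit, eBayes) in R 4.3.3 with group as the only term and Benjamini-Hochberg adjustment over all of them, after a check of the script on simulated data. A gene was read by its brightest probe set with exactly 1 symbol. SE and intervals are limma's moderated ones. Promoter letters are RefSeq's (GRCm38.p6), and chromosome bands are those of the deposited annotation.

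Members, lists, markers and the rule for named genes were chosen with earlier results of these data known. The rule names the members, Nr2f2, up to 4 called genes a list (2 where none was called) and the 3 genes outside the members most like Slc40a1 and Hmox1. Predicted genes and those without a descriptive name were left out of that likeness ranking. Sertoli cell markers were measured too (0 of 6 called). Same-numbered replicates of the groups deviated together at r = 0.11, -0.05 and 0.17, and unlike-numbered ones at r from -0.22 to 0.13. Some members, such as Tfrc and Bdh2, kept the same order of replicates in both groups, and others, such as Hmox1 and Blvra, did not. The labels do not say that equal numbers are pairs, so they were not taken as pairs, and a pairing is not excluded. The values of 1 called gene of these lists are not reported here.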

Additional observations from a re-analysis of the deposited data

How the results depend on the processing

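The members called lower numbered 4 under each of the 17 alternatives, and the other counts moved. Against 783 probe sets lower and 426 higher, 2 members higher, and 8 other iron and heme genes lower and 0 higher, adding probe sets without a symbol gave 291, 145, 0, 2 and 0, and an adjusted p under 0.01 gave 212, 83, 0, 2 and 0. The brighter probe sets alone gave 1455, 920, 1, 21 and 2, and an intensity trend in the prior gave 1317, 815, 2, 21 and 1. Centring each array on its median gave 1184, 308, 1, 15 and 0, so rises were a smaller part of all calls than in the reported fit. The other iron and heme genes that were lower numbered 14 with array weights (and 1 higher), 14 with cyclic loess and 13 with quantile normalization. With the replicate number as a block, a pairing that the check did not settle, 484 probe sets were lower and 227 higher, 1 member higher and 1 other gene higher. Leaving out 1 array at a time gave 210 to 518 probe sets lower, 96 to 240 higher, 0 to 1 members higher and 2 to 7 other genes lower. The cause of these moves was not tested, except that fewer arrays or another set of probe sets enter some fits by construction. Bdh2 lost its call under 7 of 16 alternatives that hold it and Ncoa4 under 9 of 17. Tfrc, called under none, came out just above 0 in 1 of them. The number of arrays limits the precision of every value.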
